A study of Rattus norvegicus with 8 samples.

Results

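Hbb, LOC100134871 and Ahsp are genes of hemoglobin and of its assembly, and they were followed in whole blood of hypertensive rats before and after administration of Chios mastic gum (CMG), the resin of Pistacia lentiscus var. Chia. They are 3 of the 17446 genes counted, and they were chosen by their measured values, namely their counts, their shares of the library total and the ratio of LOC100134871 to Hbb in these libraries. Those values are therefore given as a description, without a test. All rats were wild type Wistar, which the study's methods give as male and 12 to 14 weeks old. In the AngII model, rats had angiotensin II (AngII) infused at 0.4 mg/kg/day by a minipump, with blood sampled at week 1 (before CMG) and week 5 (after CMG). In the DOCA–HS model, rats received deoxycorticosterone acetate (DOCA) at 100 mg/kg weekly with 0.9% NaCl and 1% KCl as drinking fluid, with sampling at week 3 (before CMG) and week 7 (after CMG). The after libraries followed 4 weeks of oral CMG at 220 mg/kg daily, and each of the 4 groups holds 2 libraries. No library of rats kept without CMG until week 5 or week 7 was analysed here. CMG and the 4 further weeks of the model therefore cannot be told apart. Neither the labels nor the methods say whether a library is a single rat or a pool, or whether equal replicate numbers mark the same rat, so that the spread between libraries may be technical.

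Hemoglobin carries oxygen in red cells and is built from alpha and beta chains, each of which holds a heme group with an iron atom. Ahsp, the alpha-hemoglobin stabilizing protein, binds free alpha chains and keeps them from precipitating until they pair with beta chains. Red cells of mammals have no nucleus, but the youngest of them in the circulation, the reticulocytes, still carry globin mRNA, so the RNA of whole blood is rich in globin transcripts unless these are removed.

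Hbb encodes a beta chain of hemoglobin. LOC100134871 was matched by its gene ID to the RefSeq table of the GRCr8 rat assembly, where it is named Hbbl1 and lies in the beta-globin cluster of chromosome 1 as the third gene in order, with Hbb as the fifth. Between them lies Hbb-b2, and Hbb-bs and Hbb-b1 come before LOC100134871. Ahsp also lies on chromosome 1. The 150 bases before the RefSeq start of the 2 beta-globin genes are shown because the ratio of these genes to each other is followed in each library. Capitals mark, on either strand, every CACCC, the letters that Klf1 and related factors bind before globin genes, every CCAAT, which stands before many genes, and every ATAAA, a form of the TATA box. The windows are chr1:167663722-167663871 for Hbb and chr1:167650236-167650385 for LOC100134871, both on the minus strand of GRCr8 and read 5′ to 3′.
Hbb: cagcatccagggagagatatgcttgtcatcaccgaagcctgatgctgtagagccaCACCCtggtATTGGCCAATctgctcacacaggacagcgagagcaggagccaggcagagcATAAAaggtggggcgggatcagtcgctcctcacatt
LOC100134871: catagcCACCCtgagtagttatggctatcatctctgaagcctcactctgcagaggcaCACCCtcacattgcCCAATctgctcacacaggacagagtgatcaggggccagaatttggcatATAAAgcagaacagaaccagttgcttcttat
In Hbb, a CCAAT begins 81 bases before the start and overlaps none of the letters of its copy on the other strand, which directly precedes it, and ATAAA begins 36 bases before the start. In LOC100134871 the same letters begin 79 and 31 bases before the start, and it holds CACCC at 2 places. The same search was made in the 150 bases before the start of 33469 rat promoters of the RefSeq table. These promoters were those with the full window from 250 bases before to 50 bases after the start. Of the 150-base stretches, 35.2% held CACCC on either strand, 23.5% held CCAAT and 25.7% held ATAAA in this way, while 1.59% held all 3. Over the 250 bases before the start, Hbb and LOC100134871 were identical in 60.9% of aligned positions, while LOC100134871 was identical to Hbb-b2 in 98.4%, to Hbb-b1 in 95.7% and to Hbb-bs in 93.3%. In the 50 bases after the start, which are part of the transcript, LOC100134871 was 77.4% identical to Hbb and 92.3% identical to Hbb-b2. Hbb-b1, Hbb-b2 and Hbb-bs were not matched in the counts, and how reads of similar copies were assigned was not tested. The level of LOC100134871 is therefore uncertain.

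The counts of a library are the reads counted on genes, and the totals ranged from 4149104 to 13205565. Red cell and reticulocyte markers, with 10 of 11 measured genes counted in every library, summed to 49181 to 77226 counts per 1000000 counts outside the 2 hemoglobin genes, so red cell RNA was present in each library labelled whole blood. Neutrophil markers summed to 659.8 to 1834, monocyte markers to 862 to 2792, B cell markers to 677 to 2913, T cell markers to 338 to 955 and platelet markers to 327 to 3596 on this scale. DOCA–HS after replicate 2 stood apart, with 651764 counts outside hemoglobin and 2686 genes with at least 10 counts, against at least 2195735 counts and 6097 genes in each other library.

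Hbb had the highest count of every library and LOC100134871 the second highest, where counts are not set per gene length. In AngII rats, Hbb took 45.4% and 48.1% of the library total before CMG and 47.9% and 45.7% after it, and the groups overlapped. Its share in DOCA–HS rats was 43.2% and 62.3% before and 45.4% and 65.3% after CMG. The gap between the replicates of a DOCA–HS group, 1.44-fold before and 1.44-fold after CMG, was wider than in either AngII group, where it was 1.06-fold and 1.05-fold. Within each DOCA–HS group replicate 2 was the higher, so that the groups overlapped here too. Counting error was small beside these gaps, since the 95% Wilson interval of an Hbb share reached at most 0.0458 percentage points to either side. Such intervals cover counting error only.

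LOC100134871 took 20.6% and 21.8% of the total before CMG and 19.9% and 22.9% after it in AngII rats. Its shares in DOCA–HS rats were 18.7% and 8.70% before and 21.7% and 19.0% after CMG. Hence 7 of the 8 libraries lay between 18.7% and 22.9%, and DOCA–HS before replicate 2 lay below them. Both DOCA–HS after libraries were above both before libraries. Over the 7403 genes with a mean of at least 10 counts, 1.31% were above in the same way, and LOC100134871 was 1 of the 3 hemoglobin and chaperone genes to be so. In AngII rats 0 of the 3 genes were free of overlap in either direction, against 35.4% of the 7403 genes.

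**Figure D1:**
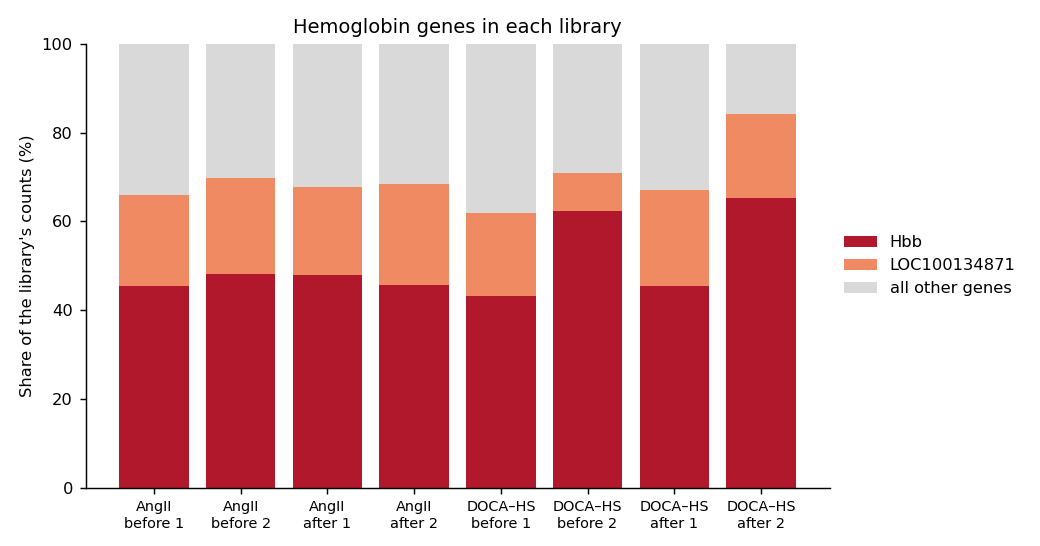
Share of each library's total counts (%, y axis) that fell on Hbb, on LOC100134871 and on all other genes, for the 8 libraries (x axis; the numbers are replicates). The Hbb segment exceeds 60% in replicate 2 of both DOCA–HS groups, and the LOC100134871 segment is 8.70% in DOCA–HS before replicate 2.

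Together the 2 hemoglobin genes took 66.0%, 69.9%, 67.7% and 68.5% of the counts in the AngII libraries, in the order before 1, before 2, after 1 and after 2. The same order gave 61.9%, 71.0%, 67.1% and 84.3% in the DOCA–HS libraries. The AngII libraries thus lay close to each other, and DOCA–HS after replicate 2 was the highest of all. The next highest count was that of Ybx3, a cold-shock domain protein, with 1.83% to 2.47% of the total in 7 libraries, and in DOCA–HS after replicate 2 it was Alas2, the first enzyme of heme synthesis in red cells, with 1.02%. In bulk blood, fewer cells of a type and less RNA per cell cannot be told apart, so a share says nothing of red cell number.

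The ratio of LOC100134871 to Hbb counts is taken within a library and needs no scaling, and it is compared between libraries, not read as a ratio of molecules. In AngII rats it was 0.454 and 0.453 before and 0.415 and 0.500 after CMG. In DOCA–HS rats it was 0.432 and 0.140 before and 0.479 and 0.290 after CMG. Replicate 2 of each DOCA–HS group was therefore below every other library, of which the lowest was at 0.415. The 95% interval from counting error was 0.139 to 0.140 in DOCA–HS before replicate 2 and 0.290 to 0.291 in DOCA–HS after replicate 2. The pair of AngII before libraries differed 1.00-fold in the ratio and the pair of DOCA–HS before libraries 3.10-fold. Group means were 0.454 ± 0.000787 and 0.458 ± 0.0601 (SD, n = 2) before and after CMG in AngII rats, and 0.286 ± 0.207 and 0.385 ± 0.133 (SD, n = 2) in DOCA–HS rats. The mean log2 change of the ratio was 0.01 in AngII rats and 0.60 in DOCA–HS rats, where the pooled SD within groups was 0.89. Without DOCA–HS before replicate 2 it was −0.21.

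**Figure D2:**
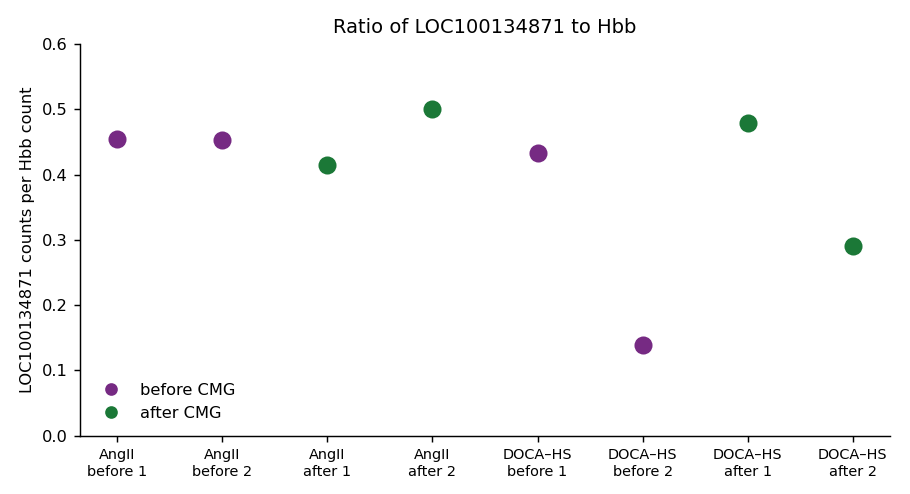
LOC100134871 counts per Hbb count (y axis, starting at 0) in each of the 8 libraries (x axis; the numbers are replicates), before and after CMG. Of the 8 points, 6 lie between 0.415 and 0.500, and replicate 2 of the DOCA–HS groups lies at 0.140 before and 0.290 after CMG.

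The low ratio of DOCA–HS before replicate 2 went with a high Hbb and a low LOC100134871 level, and that of DOCA–HS after replicate 2 with a high Hbb level. Per count outside hemoglobin, DOCA–HS before replicate 2 had 2.15 Hbb and 0.300 LOC100134871 counts, against 1.14 and 0.491 in its replicate 1. DOCA–HS after replicate 2 had 4.16 Hbb and 1.21 LOC100134871 counts, against 1.38 and 0.660 in its replicate 1, so both genes were higher there and Hbb by more. Per Alas2 count, which sets them against another red cell transcript, the 2 DOCA–HS replicate 2 libraries had 46.5 and 63.8 Hbb counts, and the other libraries had 28.0 to 34.8. LOC100134871 per Alas2 count was 6.49 in DOCA–HS before replicate 2 and 12.1 to 18.5 elsewhere. DOCA–HS before replicate 2 had 8175368 counts in all and 7218 genes of at least 10 counts, both inside the range of the other libraries. The part of depth in its ratio was not tested. In this library the neutrophil markers summed to 1834 per 1000000 counts outside hemoglobin, the highest of the 8 libraries. The other sums ranged from 659.8 to 1102. S100a9, Mmp8, Mmp9, Ngp, Lcn2 and Camp were highest there singly, and S100a8, Csf3r, Cxcr2, Ltf and Fcnb were not. The part of these markers in the ratio was not tested.

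Ahsp held ranks 36 to 55 by count among the genes of a library. Per 1000000 counts of the total, it was at 1015 and 841 before and 1041 and 656 after CMG in AngII rats. In DOCA–HS rats it was at 916 and 601 before and 1099.9 and 593 after CMG. Before and after CMG overlapped in both models, with means of 928 ± 123 and 849 ± 272 (SD, n = 2) in AngII rats and 758 ± 223 and 846 ± 359 (SD, n = 2) in DOCA–HS rats. The Wilson interval of an Ahsp share reached at most 0.00242 percentage points to either side.

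On this scale the 4 replicate 1 libraries, at 916 to 1099.9 per 1000000, were all above the 4 replicate 2 libraries, at 593 to 841. This split was noticed after the values were seen, and 6.34% of the 7403 genes showed it in the same direction. The geometric mean was 1.53-fold higher in replicate 1. Per 1000 counts on Hbb and LOC100134871, Ahsp was at 1.48 to 1.64 in the replicate 1 libraries and at 0.703 to 1.20 in the replicate 2 libraries. Per Alas2 count it was at 0.0593 to 0.0845 and at 0.0437 to 0.0579. The separation was not present per 1000000 counts outside hemoglobin, where replicate 1 ranged from 2406 to 3342 and replicate 2 from 2071 to 3773, and where 2.5% of the genes showed it. It was absent with TMM normalized values as well, on which replicate 2 was 0.02 higher on the log2 scale. Platelet markers, summed per 1000000 counts outside hemoglobin, moved with the number in AngII rats. They were at 2358 and 2047 in replicate 1 and at 599 and 327 in replicate 2. Their sum did not do so in DOCA–HS rats, with 1435 and 3596 in replicate 1 and 1729 and 2851 in replicate 2. Of these markers, Itgb3 alone did so there, at 129 and 356 in replicate 1 and 111 and 16.9 in replicate 2. The part of platelet markers in the split of Ahsp was not tested.

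Outside hemoglobin, Ahsp was at 2985 and 2793 per 1000000 before CMG and at 3227 and 2086 after it in AngII rats. In DOCA–HS rats it was at 2406 and 2071 before and at 3342 and 3773 after CMG, and both after libraries were above both before libraries. LOC100134871 was free of overlap in the same direction on this scale and Hbb was not, so 2 of the 3 genes were, against 6.5% of the 7403 genes. The DOCA–HS means of Ahsp were 2239 ± 237 and 3557 ± 305 (SD, n = 2). With TMM the groups did not overlap either, at 489 and 522 before and 765 and 1729 after CMG. The share of all genes without overlap was not counted on the TMM scale. Per Alas2 count the Ahsp groups overlapped, at 0.0593 and 0.0448 before and 0.0845 and 0.0579 after CMG. Whether the DOCA–HS groups overlap in Ahsp thus depends on the denominator. Per 1000000 counts outside hemoglobin, the 8 platelet markers, 7 of them counted in every library, also lay higher without overlap, at 1435 and 1729 before and 3596 and 2851 after CMG. The 8 T cell markers, 7 of them counted in every library, lay lower, at 955 and 812 before and 595 and 338 after CMG. The 7 B cell markers, 6 of them counted in every library, also lay lower, at 2913 and 1956 before and 1457 and 677 after CMG. The part of these cell types in the Ahsp values was not tested.

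**Figure D3:**
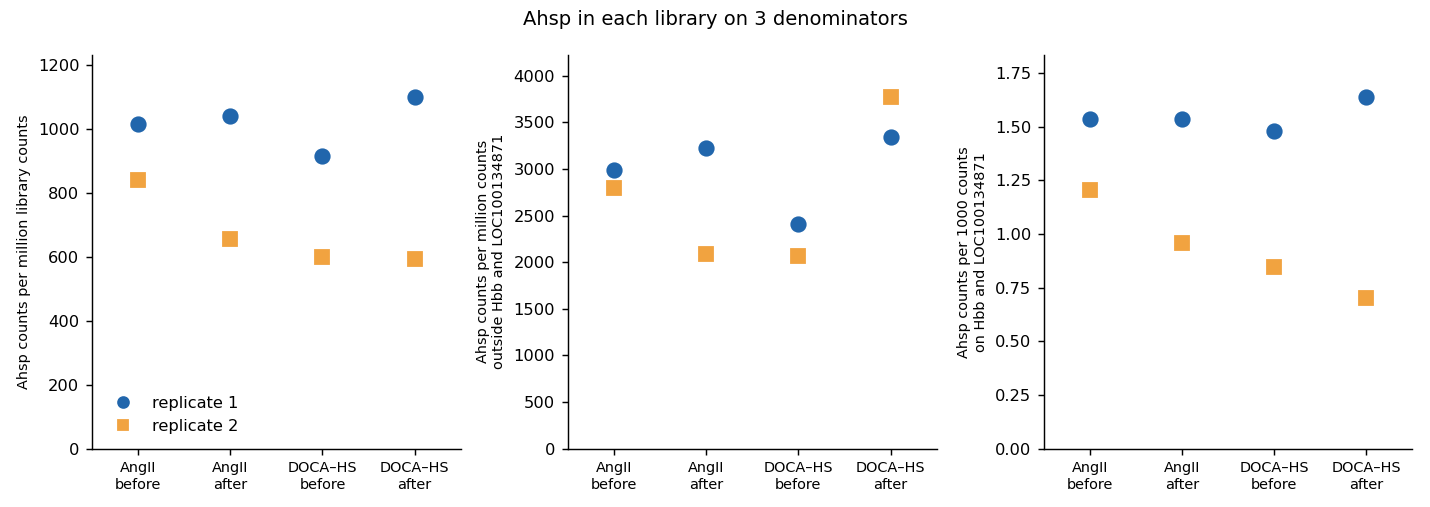
Ahsp counts per 1000000 counts of the library (left), per 1000000 counts outside Hbb and LOC100134871 (middle) and per 1000 counts on these genes (right), y axes starting at 0, by group (x axis), with 1 point per library. Circles (replicate 1) lie above squares (replicate 2) in every group on the left and right, and in 3 of the 4 groups in the middle.

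The change after against before CMG was computed as a difference of mean log2 shares of the total, with the pooled SD within groups as its error. In AngII rats it was 0.00 for Hbb (SD 0.05), 0.01 for LOC100134871 (SD 0.11) and −0.16 for Ahsp (SD 0.36), each smaller than its SD. In DOCA–HS rats it was 0.07 for Hbb (SD 0.37), 0.12 for Ahsp (SD 0.54) and 0.67 for LOC100134871 (SD 0.56), or 1.59-fold. Of the 6 changes, that of LOC100134871 in DOCA–HS rats was the 1 that exceeded its SD, and without before replicate 2 it was 0.12. For Hbb in DOCA–HS rats the change was 0.07 from replicate 1 to replicate 1 and 0.07 from replicate 2 to replicate 2, while for LOC100134871 it was 0.22 and 1.13.

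These changes depended on the scaling, and the hemoglobin genes were most of each library. All 3 genes passed the filter on low counts. TMM normalization, which sets the library sizes so that the bulk of genes does not change, gave factors of 0.776 to 1.88 and of 0.343 in DOCA–HS after replicate 2. With TMM, Hbb, LOC100134871 and Ahsp were at −0.37, −0.36 and −0.53 in AngII rats and at 1.13, 1.74 and 1.19 in DOCA–HS rats. Per count outside hemoglobin, the DOCA–HS values were 0.62, 1.22 and 0.67. In fits scaled to the total, the median log2 fold change of all genes tested was 0.36 in AngII rats and −0.76 in DOCA–HS rats, against −0.01 and −0.04 with TMM. On either scale the 3 genes were thus below the median of all genes in AngII rats and above it in DOCA–HS rats. In the edgeR fit of the DOCA–HS libraries with TMM, the fitted log2 fold changes were 1.53 for Hbb, 2.01 for LOC100134871 and 1.31 for Ahsp. Without DOCA–HS after replicate 2, these fitted values were −0.29, 0.80 and 0.61, so the direction of Hbb rests on that library.

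**Figure D4:**
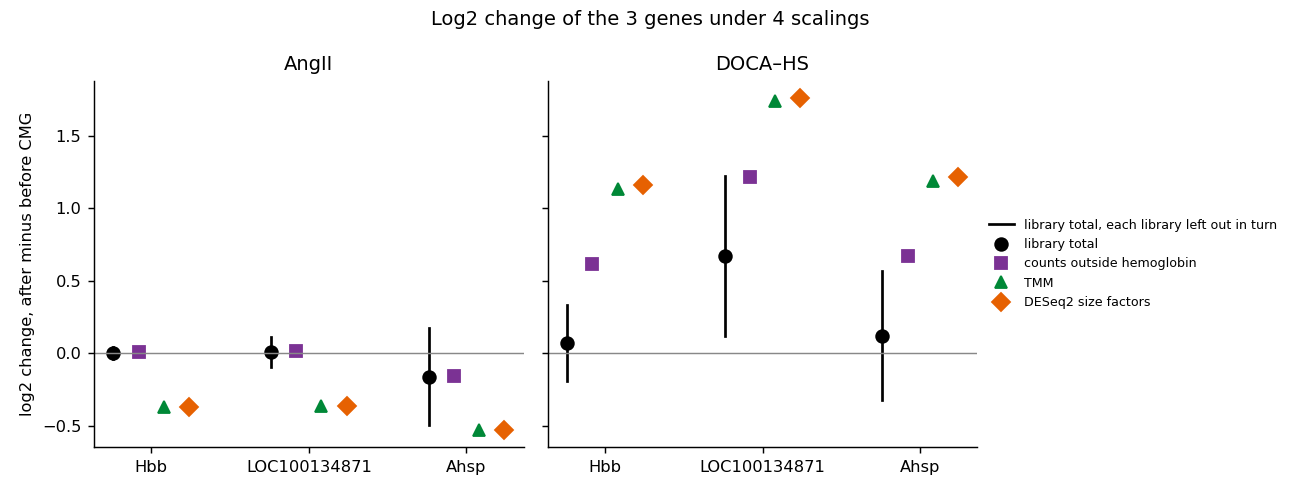
Log2 change after minus before CMG (y axis) of Hbb, LOC100134871 and Ahsp (x axis) in the AngII (left) and DOCA–HS (right) model under 4 scalings; the black line spans the values scaled to the library total with each library left out in turn. In AngII rats the points lie between −0.53 and 0.02, and in DOCA–HS rats between 0.07 for Hbb scaled to the total and 1.76 for LOC100134871 with DESeq2 size factors.

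By the rule of the highest Pearson correlation over the 8 libraries (TMM normalized log2 CPM, 3569 genes with a mean of at least 50 counts), the genes most like Hbb were Ptov1, Phb, Rab21, Sptbn4 and Mau2, with r of 0.984 to 0.992. Among those most like LOC100134871 were Trmt9b, Tle5, Ubxn6 and Svip, with r of 0.962 to 0.990. For Ahsp they included Fn3k, Lmna, Haus4 and Alad, an enzyme of heme synthesis, with r of 0.984 to 0.988. All points share the TMM factors of the libraries, which fell as the hemoglobin share rose (r = −0.904 over the 8 libraries). Scaled to library totals, 1 of the 5 genes was still among the 5 most like Hbb, 2 for LOC100134871 and 2 for Ahsp. On that scale Ptov1, the closest to Hbb with TMM, had an r of −0.130 with it, while Fn3k kept 0.983 with Ahsp and Trmt9b 0.933 with LOC100134871. Among the 3 genes themselves, LOC100134871 and Ahsp had an r of 0.890 with TMM and 0.489 with totals. Hbb and LOC100134871 had 0.765 and −0.629, and Hbb and Ahsp 0.794 and −0.760. Hbb is a large part of each total, so the shares of that total are not independent of it.

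The other genes of hemoglobin assembly were followed in 7 lists of 109 gene names, of which 81 were matched in the counts. They were tested with edgeR's quasi-likelihood test in each model, and a gene was called by the study's criterion, which asks for a log2 fold change beyond 1.5 up or down together with p of at most 0.05 before adjustment. For AngII the fit held 73 of them, with 0 upregulated and 0 downregulated, against 0.903% and 0.333% of all 7201 genes in the fit. For DOCA–HS it held 75, with 2 upregulated, Alad and Icam4, and 0 downregulated, against 1.79% and 0.259% of all 7720 genes in that fit. Benjamini-Hochberg adjustment was made over all genes of these fits, which hold all 4 libraries of a model. In edgeR, 0 of the listed genes passed an adjusted p under 0.05 in either model, as for all genes tested (0% in both). With DESeq2, 0 of the listed genes passed. Without AngII after replicate 1, 11 of 74 listed genes were downregulated, against 3.76% of all genes in that fit. Without DOCA–HS after replicate 1, 15 of 74 were upregulated, against 7.46% of all genes, and 4 were downregulated, against 13.6%. At an unadjusted p of at most 0.05, 1 of 73 passed in AngII rats, against 6.65% of all genes, and 4 of 75 in DOCA–HS rats, against 3.17%. In a fit of all 8 libraries, the difference between the models passed for 0 of 75 at an adjusted p under 0.05 (edgeR; 0% of all 7994 genes) and for 4 at an unadjusted p of at most 0.05, against 3.74% of all genes.

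With TMM their median log2 fold change was −0.38 in AngII rats, with 11 of 73 above 0, beside −0.01 over all genes. In DOCA–HS rats it was 0.56, with 60 of 75 above 0, beside −0.04 over all genes. Scaled to totals these medians were −0.10 and −0.40, beside 0.36 and −0.76 over all genes, so the sign in DOCA–HS rats turned with the scaling while the place relative to all genes did not. Leaving out after replicate 2 gave 0.05 in both models, with 40 of 73 and 41 of 75 above 0. The medians and the counts above 0 thus rest on that replicate in each model.

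Among the other globins, 3 of 23 names were matched and 1 had counts, Cygb, the cytoglobin found in many tissues, with 2 to 15 counts per library. The alpha-globin genes, whose product Ahsp binds, were not matched in the counts, so no ratio of alpha to beta chains is given. All 13 genes of heme synthesis were tested in both models, with a median of −0.38 in AngII and 0.79 in DOCA–HS rats. Alas2, the rate-limiting enzyme, had the highest counts, at 39569 to 65197 per 1000000 counts outside hemoglobin, followed by Fech, which inserts the iron, at 4290 to 11964. Urod, an enzyme of a middle step, ranged from 384 to 722. Alad, which joins the first intermediates, had 115 and 125 per 1000000 before CMG and 140 and 78.7 after it in AngII rats. In DOCA–HS rats it had 93.2 and 83.5 before and 132 and 241 after CMG, above in both after libraries. Its log2 fold change there was 1.80 (standard error 0.66, unadjusted p = 0.0243, adjusted p = 0.997, edgeR). The breakdown and scavenging list had 0 calls among 7 genes tested in each model, and its highest counts were those of Slc48a1, a heme transporter, Blvrb and Blvra, which act on biliverdin, and Lrp1, a receptor of the heme-hemopexin complex.

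Of 16 red cell membrane genes tested, 0 were called in AngII rats, where all lay below 0 with a median of −0.51, and 1 was upregulated in DOCA–HS rats, where 13 lay above 0 with a median of 0.42. This was Icam4, a blood group adhesion protein, with counts of 25 and 19 before and of 56 and 18 after CMG. Its log2 fold change was 2.12 (standard error 0.63, unadjusted p = 0.00913, adjusted p = 0.997, edgeR). The members with the highest counts were Slc4a1, the anion exchanger band 3, Add2, Aqp1, a water channel, and Kel, whose log2 fold changes were −0.81 to −0.28 in AngII and 0.40 to 0.57 in DOCA–HS rats. Neither Alad nor Icam4 was called with scaling to totals or to counts outside hemoglobin, or without DOCA–HS before replicate 1 or after replicate 2, and Alad was not called without before replicate 2.

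Erythroid transcription factors had 0 calls among 12 tested in each model, with medians of −0.35 and 0.44. The highest counts were those of Nfe2, Lyl1, Klf1, an activator of beta-globin, and Zfpm1, a partner of Gata1, with log2 fold changes of −0.48 to −0.35 and of 0.44 to 1.26. Red cell enzymes and antioxidants had 0 calls among 17 and 18 tested, with medians of −0.41 and 0.62. Their highest counts were those of Bpgm, whose product lowers the oxygen affinity of hemoglobin, Prdx2, Bnip3l and Car2, a carbonic anhydrase, with −0.42 to −0.24 and 0.93 to 1.58. Iron handling genes had 0 calls among 8 in each model, with medians of −0.15 and 0.91, and were led in counts by the ferritin chains Ftl1 and Fth1, by Ncoa4, which delivers ferritin for breakdown, and by Pcbp2, an iron chaperone.

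**Figure D5:**
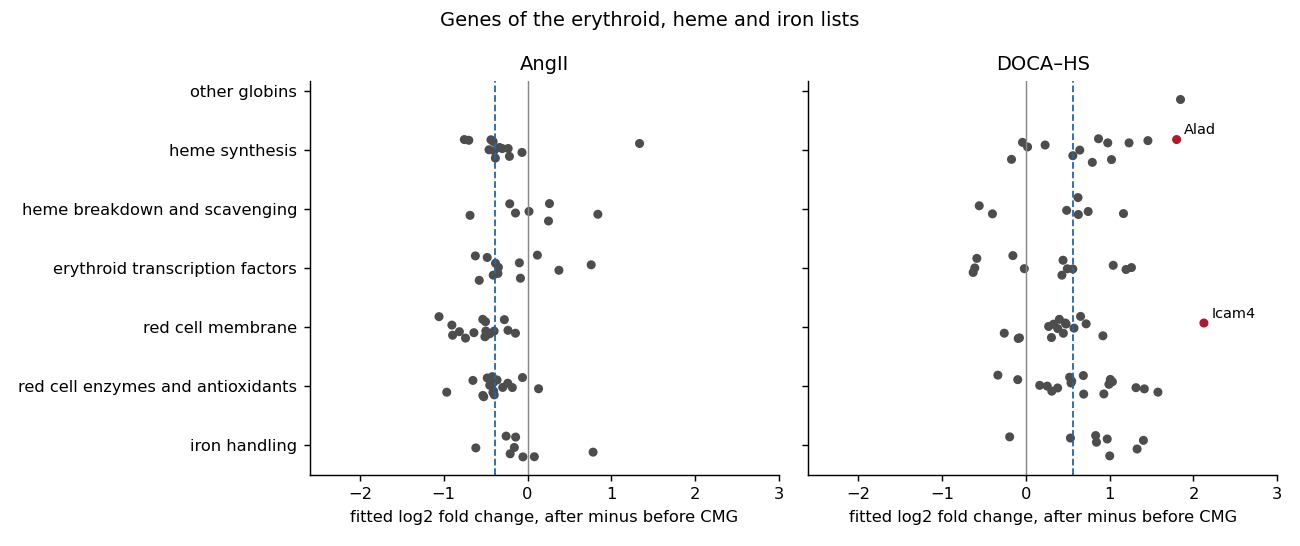
Fitted log2 fold change after minus before CMG (x axis, TMM normalization) of the genes tested in the 7 lists (y axis), with 1 point per gene, in the AngII (left) and DOCA–HS (right) model. The dashed line is the median of these genes, −0.38 and 0.56, and the named red points are Alad and Icam4, the 2 genes called.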

How the data were processed

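Whole blood RNA was sequenced in 8 libraries. Per the study's methods and the submitters' notes, the authors aligned single-end reads to rn6 with HISAT2 and counted them with HTSeq by strand, and they deposited raw counts per gene without normalization. Their methods take the hemoglobin annotations out ahead of counting, yet Hbb and LOC100134871 have the highest counts deposited. The names searched for alpha-globin, Hbb-b1, Hbb-b2 and Hbb-bs were not matched in the counts. The library totals behind each share thus hold no counts under these names. Which annotations were removed is not known. Genes were 17446, of which 5754 had no count, and 0 columns were left unmapped.

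Groups came from the sample titles. The members and the lists of genes were chosen with earlier results of these data known. Shares were counts over the library total, and 95% Wilson intervals cover counting error only. Replicate counts were further apart than counting error allows (chi-square over degrees of freedom, 15.4 to 94.5). This measure sums over genes with Hbb and LOC100134871 included, and it was not computed without them. All genes of each model were fitted with edgeR 4.0.16 in R 4.3.3 (filterByExpr, TMM, quasi-likelihood test, Benjamini-Hochberg adjustment), after a check on simulated counts. For log2 CPM the prior count was 2. The authors used DESeq2, which in version 1.42.0 was an alternative here, beside other scalings, no filter, the hemoglobin rows removed, a replicate block and each library left out.

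Genes named were the 3 members, the 4 genes of each list with the highest mean count, the listed genes called, and for each member the 5 genes most correlated with it; a few genes of this rule are not reported here. Sequences are from RefSeq (GRCr8), which held a promoter for 2 of the members, and the files' build is rn6, so no coordinates of the counts are given. Python 3.11.15, pandas 2.3.3, scipy 1.17.1 and matplotlib 3.10.9 were used.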

Additional observations from a re-analysis of the deposited data

Results flagged for a closer look

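Aqp1, the water channel of the red cell membrane, was lower in both AngII after libraries than in both before libraries and higher in both DOCA–HS after libraries than in both before libraries, with TMM normalized values. The nearest AngII values were 821.9 after and 822.8 before CMG. How many of all genes lie this way with TMM was not counted. With library totals, 35.4% of the 7403 genes with a mean of at least 10 counts were free of overlap in AngII rats, in either direction. Scaled to the library total or to counts outside hemoglobin, the groups overlapped in Aqp1 in both models. The values were 2575 and 2119.99 before and 2339.99 and 1530.2 after CMG per 1000000 counts outside hemoglobin in AngII rats, and 1949.7 and 1795 before and 2062 and 1542 after CMG in DOCA–HS rats. The log2 change in the DOCA–HS model exceeded that in the AngII model by 1.03, and the test of this difference in the fit of all 8 libraries did not pass (unadjusted p = 0.208, adjusted p = 0.881, edgeR's quasi-likelihood test). The groups of 2 libraries are too small for a test of a single library far from the others.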

How the results depend on the processing

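The log2 changes of Hbb, LOC100134871 and Ahsp depended on the scaling. In the AngII model they were −0.37, −0.36 and −0.53 with TMM and −0.37, −0.36 and −0.53 with DESeq2 size factors. In the DOCA–HS model they were 1.13, 1.74 and 1.19 with TMM, 1.16, 1.76 and 1.21 with DESeq2 size factors, and Hbb and Ahsp were at 0.62 and 0.67 per count outside hemoglobin. With each library left out in turn, the AngII changes ranged from −0.04 to 0.04, from −0.09 to 0.11 and from −0.49 to 0.17 for Hbb, LOC100134871 and Ahsp, and the ratio from −0.13 to 0.14. In the DOCA–HS model they ranged from −0.19 to 0.33, from 0.12 to 1.22 and from −0.32 to 0.57, and the ratio from −0.21 to 1.42.

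Of the listed genes, 1 was upregulated in the AngII model when scaled to totals and 1 when scaled to counts outside hemoglobin, against 2.92% and 3.12% of all genes (1.37% of the 73 listed genes). With a library left out it was 0 to 2 upregulated and 0 to 11 downregulated, the 2 without after replicate 2 (2.74%, against 0.923% of all genes) and the 11 without after replicate 1 (14.9%, against 3.76%). In the DOCA–HS model 0 were upregulated with either of these scalings, and with a library left out 0 to 15 were upregulated and 0 to 4 downregulated, the 15 and the 4 without after replicate 1 (20.3% and 5.41%, against 7.46% and 13.6% of all genes). A group with 1 library left is assumed to vary like the other.

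With the replicate number as a block, the calls among listed genes were 0 and 0 in the AngII and 2 and 0 in the DOCA–HS model. The mean changes of the 3 genes in shares cannot move with the block, by arithmetic. In the fits with TMM, the block took Hbb, LOC100134871 and Ahsp from 1.53, 2.01 and 1.31 to 1.14, 1.74 and 1.19 in DOCA–HS rats. In AngII rats it took them from −0.32, −0.34 and −0.38 to −0.35, −0.34 and −0.51. Libraries of the same number deviated together from their group means, with correlations of 0.474 and 0.321 over the genes tested, but 2 pairs in a model do not show that a number marks a rat. Over all genes, the block gave 165 in place of 0 at an adjusted p under 0.05 in the AngII model, 1 of them a listed gene.

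The log2 difference of Ahsp between replicate 2 and replicate 1, which was examined after seeing the data, was −0.61, and −0.72 to −0.55 with a library left out. It was −0.19 per count outside hemoglobin, 0.020 with TMM and 0.014 with DESeq2 size factors. The cause of these differences between settings was not tested. In DOCA–HS after replicate 2, 651764 counts outside hemoglobin limit what can be seen of less abundant genes.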
